A study of Sus scrofa with 12 samples.

Results

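The transcripts of the pig mitochondrial genome were followed in back subcutaneous fat and in the longissimus dorsi (LD) muscle of Dingyuan pigs. The members are 37 of the 31903 gene identifiers listed, namely all rows of the mitochondrial genome in its Ensembl identifier range. They are 13 protein genes, 2 rRNA genes and 22 tRNA genes. RNA was measured in 12 libraries, 3 from the fat of pigs with low backfat thickness (LBF), 3 from the fat of pigs with high backfat thickness (HBF), 3 from the muscle of pigs with low intramuscular fat (LIMF) and 3 from the muscle of pigs with high intramuscular fat (HIMF). All pigs were unmated sows of this native Chinese breed, labelled as 300 days old. The fat groups were chosen by backfat and the muscle groups by fat within the muscle, so a high group of 1 tissue is not the high group of the other. The labels do not tie a fat library to a muscle library of the same pig, and every library was treated as a separate animal.

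The mitochondrial genome is a small circle of DNA that a cell holds in many copies. Each strand is transcribed as a long precursor, which is then cut at the tRNAs that lie between most of the other genes, so the amount of each mRNA depends on how the cut pieces are matured and how long they last as well as on transcription. The proteins are core subunits of respiratory complexes I, III and IV and of the ATP synthase, all other subunits and the whole of complex II come from the nucleus, and the rRNAs build the mitochondrial ribosome. Skeletal muscle is rich in mitochondria and white fat is poor in them.

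The tissue labels were checked against defining markers. Of 8 adipocyte markers 7 were matched, and all 7 were called lower in muscle. Of 11 skeletal muscle markers 7 were matched and 5 were called higher in muscle, and all 5 matched markers of slow fibres were higher. The summed FPKM (fragments scaled to transcript length and to the reads mapped, a level per length) of the 7 muscle markers was 1.08 to 4.46 in HBF and 2.70, 11.6 and 314 in LBF, the last in LBF library 3, against 12812 to 36521 in muscle. The muscle sums count exact zeros of ACTA1, in the 3 LIMF libraries and HIMF library 1, and of CKM, in LIMF libraries 2 and 3, although ACTA1 reached 9637 FPKM and CKM 9288 FPKM in other muscle libraries, so the low end rests on these zeros. LIMF library 3 had the highest summed level of the slow fibre markers, 20456 against 2666 to 9117 in the other 5 muscle libraries. The part of either in the results was not tested, and values without LBF library 3 or LIMF library 3 are given beside several of the results.

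The 22 tRNA genes, 59 to 75 bases long, were listed at exactly 0 in all 12 libraries, so 15 of the 37 members had a value above 0 anywhere. ATP8, a small ATP synthase subunit whose gene overlaps ATP6 by 43 bases, was listed at 0 in 10 libraries and at 15.0 and 11.7 FPKM in HBF libraries 1 and 3. With 1 group wholly at 0, no fold is given for it. The other 12 protein genes, each counted here as 1 mRNA, reached over 1000 FPKM in each tissue, but 3 of them also had exact zeros. ATP6 and COX3 were listed at 0 in LBF libraries 2 and 3 and in LIMF libraries 2 and 3, and COX1 in LIMF libraries 2 and 3 and in HIMF library 3. These 11 values are treated as not quantified rather than as absent RNA, and they fall unevenly, with 4 in LBF, 0 in HBF, 6 in LIMF and 1 in HIMF. In muscle zeros of this kind were not confined to mitochondrial genes. Of the 74 genes over 1000 FPKM in some muscle library, 13 were members. At 0 in another muscle library were 8 of the 74, 3 of them members and 5 outside the mitochondrial genome, including GAPDH, ALDOA, ACTA1 and CKM. In fat 63 genes were over 1000 FPKM, 13 of them members, and the 2 with a zero, ATP6 and COX3, were both members.

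COX3, the third core subunit of complex IV, was the highest mRNA in all 8 libraries in which it was quantified. In fat it was listed at 45165 FPKM in LBF library 1 and at 23503, 30823 and 42840 FPKM in the 3 HBF libraries, and in muscle at 20309 FPKM in LIMF library 1 and at 29285, 27140 and 41965 FPKM in HIMF. ATP6, the proton channel subunit of the ATP synthase, followed with 35490 FPKM in LBF library 1, 21500 to 33390 FPKM in HBF, 17091 FPKM in LIMF library 1 and 25549 to 33155 FPKM in HIMF. COX3 was above ATP6 and ATP6 above COX2 in every library that had both, although the ranges over libraries overlapped.

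COX2, which carries the copper site that takes electrons from cytochrome c, had a mean of 19955 ± 3400 FPKM (SD, n = 6) in fat and 22841 ± 9082 FPKM (SD, n = 6) in muscle. ND4L, ND3, COX1 and CYTB lay next in both tissues. ND4L averaged 18855 ± 4707 FPKM in fat and 18684 ± 8654 FPKM in muscle (SD, n = 6 each). ND3 averaged 13988 ± 3971 and 14778 ± 8159 FPKM (SD, n = 6 each), and both are membrane subunits of complex I. CYTB, the haem subunit at the centre of complex III, averaged 11809 ± 3997 and 12216 ± 3692 FPKM (SD, n = 6 each). COX1, the catalytic subunit of complex IV, was listed at 8818, 19874 and 17007 FPKM in LBF, at 10140, 12116 and 13538 FPKM in HBF, at 17453 FPKM in LIMF library 1 and at 21449 and 20741 FPKM in HIMF libraries 1 and 2. Its range did not set it apart from its neighbours in the order.

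ND4, a proton-pumping subunit of complex I, closed this upper group with 9318 ± 1903 FPKM in fat and 10218 ± 3268 FPKM in muscle (SD, n = 6 each). Below it came the only step in the order at which neighbouring ranges did not overlap, and it was in the same place in both tissues. ND4 was 6653 to 11677 FPKM in fat and 6065 to 14789 FPKM in muscle, while ND2 was 2624 to 6557 and 2498 to 4897 FPKM. The lower group held ND2, ND1, ND5 and ND6, all subunits of complex I, with tissue means of 2337 to 4344 FPKM. In fat ND6 was above ND5 in only 3 of 6 libraries and ND5 above ND1 in 3 of 6, so their order was not set beyond the spread.

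The rRNAs were listed below the mean of the 9 mRNAs quantified in all libraries. 12S rRNA, of the small ribosomal subunit, was at 279 to 1452 FPKM in fat and 368 to 1679 FPKM in muscle. 16S rRNA, of the large subunit, was at 161 to 916 FPKM in fat and 44.0 to 642 FPKM in muscle, the lowest in LIMF library 2. Single mRNAs could lie lower, since in LIMF library 3 12S rRNA (1679 FPKM) was above ND6 (966 FPKM). The mean of both rRNAs was 0.0129 to 0.115 of the mean of these mRNAs. How rRNA and mRNA were selected in making the libraries is not given beyond the TruSeq RNA kit, so no ratio in the cells is given. Mammalian nuclear genomes also hold copies of mitochondrial DNA, and how reads that match in several places were counted is not given in the sources used here.

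**Figure D1:**
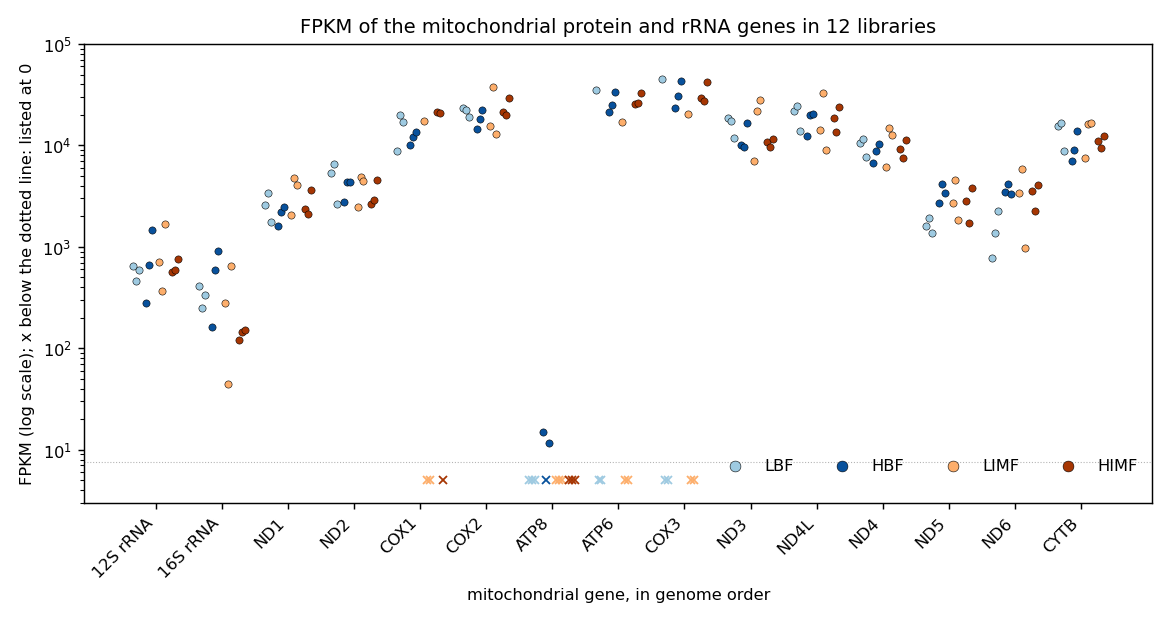
FPKM (log axis) of the 13 protein and 2 rRNA genes in genome order, 1 point per library, coloured by group, with crosses below the dotted line for values listed at exactly 0. The crosses are 10 for ATP8, 4 each for ATP6 and COX3 and 3 for COX1, and the gap between ND4 and ND2 is visible in both tissues.

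All members together held 37.1, 29.0 and 20.7% of the FPKM listed in the LBF libraries and 24.9, 31.2 and 37.6% in HBF. In the LIMF libraries they held 25.9, 32.6 and 21.6% and in the HIMF libraries 31.4, 28.9 and 34.9%. The group means were 28.9 ± 8.19%, 31.2 ± 6.37%, 26.7 ± 5.52% and 31.7 ± 3.01% (SD, n = 3 each), and the ranges of the 4 groups overlapped. Over the 11 members above 0 in every library the order of the groups turned. These were 20.3 ± 3.91% in LBF, 16.6 ± 3.35% in HBF, 22.6 ± 9.45% in LIMF and 16.9 ± 3.21% in HIMF (SD, n = 3 each), so whether a high group lay above or below its low group depended on the 11 values that were not quantified. The total still held COX1, ATP6, COX3 and ATP8 where they were listed, and with these left out of the total the shares were 22.3 ± 4.33%, 19.6 ± 4.61%, 23.3 ± 8.58% and 19.8 ± 3.72% in LBF, HBF, LIMF and HIMF, whose ranges overlapped. The share is of FPKM, which is per length, and not of reads.

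**Figure D2:**
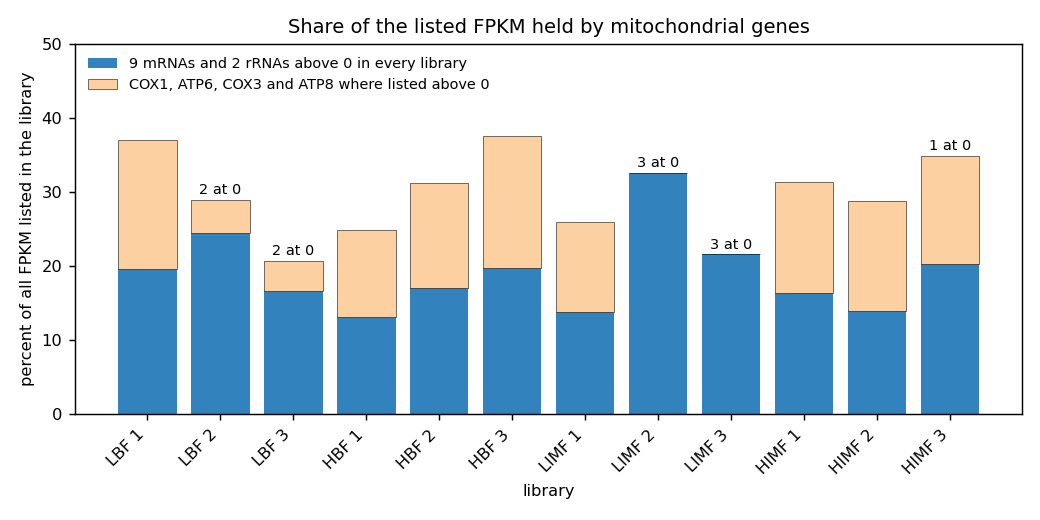
Share of all listed FPKM (percent) held by mitochondrial genes in each library, split into the 11 members above 0 in every library and COX1, ATP6, COX3 and ATP8, with the number of not quantified values printed above a bar. The bars run from 20.7 to 37.6%, and the 4 libraries with 2 or 3 such values lie between 20.7 and 32.6%.

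The comparison of HBF with LBF asked which members differed with backfat thickness. ND5 and ND6 were listed higher in every HBF library than in any LBF library, but neither passed the test across all genes. The other 7 mRNAs quantified in all libraries were lower on average in HBF and overlapped between the groups. ND5, a proton-pumping subunit of complex I at the end of its membrane arm, was at 1588, 1945 and 1377 FPKM in the LBF libraries against 2683, 4135 and 3413 FPKM in the HBF libraries. ND6, the only protein gene on the other strand, was at 778, 1357 and 2251 FPKM in the LBF libraries against 3497, 4176 and 3325 FPKM in the HBF libraries.

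On the log2(FPKM + 0.1) scale ND5 differed by 1.05 ± 0.28 (SE), or 2.07-fold, and ND6 by 1.45 ± 0.40 (SE), or 2.73-fold. The limma adjusted p was 0.252 for ND5 and 0.264 for ND6, with unadjusted p of 0.0066 and 0.0084. An exact two-sided permutation test gave 0.10 for each, the smallest value that 3 libraries against 3 allow. A gene is called here where the adjusted p is under 0.01 and the log2 difference is 1 or more in either direction, and 0 of 16239 genes tested (0%) and 0 of the 15 members tested were called. The smallest limma adjusted p of any gene was 0.130, so 0 calls among the members do not set them apart. An unadjusted p under 0.05 was reached by 13.6% of all genes, 2207 of them, 9.36% being higher and 4.23% lower in HBF, and 20.4% of all genes did not overlap between the groups. That 2 of the 9 mRNAs quantified in every library did not overlap is close to this background. The split of all genes at an unadjusted p under 0.05 moved with the scaling, 68.9% of those at this limit being higher in HBF as listed and 46.7% of those at it after median-of-ratios scaling, while ND5 (0.94) and ND6 (1.34) kept their direction.

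Markers of other cell types are given for the fat groups, and 0 of them were called. The summed FPKM of both red blood cell markers was 251 to 621 in LBF and 48.8 to 191 in HBF, which did not overlap. That of the 5 fibroblast markers was 2334 to 7513 in LBF and 1610 to 3792 in HBF, which overlapped, with 4 of 5 below 0. Of 4 macrophage markers 3 were higher in HBF at an unadjusted p under 0.05 and 1 lay below 0. Their sums were 31.3 to 103 in LBF and 86.5 to 97.7 in HBF, which overlapped. No marker was at 0 in all libraries of a fat group for these lists, and their part in the values of the mitochondrial genes was not tested.

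The reads of ND5 and ND6 are not wholly separate. Their genes lie on opposite strands and overlap by 17 bases (ND5 at MT:12935-14755 and ND6 at MT:14739-15266, RefSeq annotation of Sscrofa11.1). Whether strand was used in counting is not stated. Reads of the overlap, and any RNA of the opposite strand elsewhere in either gene, therefore cannot be told apart. ND5 and ND6 did not move as a fixed pair, as ND5 was 2.04, 1.43 and 0.612 times ND6 in LBF and 0.767, 0.990 and 1.03 times in HBF. LBF library 3, which held the muscle markers, had the lowest ND5 and the highest ND6 of its group. Without it the log2 difference was 0.93 for ND5 and 1.83 for ND6, with limma adjusted p of 0.295 and 0.192.

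The other complex I mRNAs lay a little lower in HBF. ND1, next to the joint of the membrane arm with the matrix arm, differed by -0.28 ± 0.33, ND2 by -0.27 ± 0.43, ND3 by -0.42 ± 0.47, ND4L by -0.19 ± 0.51 and ND4 by -0.21 ± 0.40 (log2, SE, n = 3 against 3). CYTB was at 15540, 16469 and 8907 FPKM in the LBF libraries against 7021, 8943 and 13972 FPKM in the HBF libraries, a log2 difference of -0.46 ± 0.48 (SE). None of these differences exceeded the spread between libraries, and the 95% interval for CYTB ran from -1.59 to 0.67.

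Of complex IV, COX1 differed by -0.28 ± 0.49 and COX2 by -0.25 ± 0.48 (log2, SE). COX3 at -0.52 ± 0.99 and ATP6 at -0.44 ± 0.91 (log2, SE) rest on 1 LBF library, and the fit takes their spread from the HBF libraries. The rRNAs differed by 0.20 ± 0.55 for 12S and 0.44 ± 0.60 for 16S, with HBF libraries both below and above all LBF libraries. Without ATP8, 4 of 14 members lay above 0 and 10 below, while 60.3% of all genes lay above 0 with a median of 0.09.

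Ratios of neighbours in the genome compare members within a library and do not depend on the scaling between libraries. For all 13 neighbouring pairs of the 14 members without ATP8 they are given as a description, with no test. In fat 10 pairs had both values in all 6 libraries, and 1 of them did not overlap between LBF and HBF. The FPKM of 20.4% of all genes did not overlap, a different measure that carries the scaling between libraries. This pair, ND4:ND5, is described here because its values were seen. ND4 was 6.64, 6.0 and 5.61 times ND5 in LBF and 2.48, 2.15 and 3.05 times ND5 in HBF. The means were 6.09 ± 0.52 and 2.56 ± 0.46 (SD, n = 3 each), and all LBF libraries lay above all HBF libraries. In muscle the same ratio was 2.25, 3.26 and 6.84 in the LIMF libraries against 3.24, 4.36 and 2.95 in the HIMF libraries, which overlap.

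Against the geometric mean of the 9 mRNAs quantified everywhere, ND5 stood at log2 levels of -2.07, -2.01 and -1.93 in LBF and of -0.99, -0.78 and -1.23 in HBF. Its relative level therefore differed by 1.0. ND5 was 1 of 5 of the 9 mRNAs whose relative level did not overlap between the groups, the others being ND1 (-0.33), COX2 (-0.29), ND3 (-0.47) and ND4 (-0.26), all lower in HBF. On this scale 7.22% of all genes did not overlap, but the reference is made of these 9 mRNAs, so the members' count cannot be read against that share. In HIMF against LIMF 1 of the 9 did not overlap (4.86% of all genes), COX2 at log2 levels of 1.69 to 1.86 in HIMF and 1.0 to 1.68 in LIMF, and between the tissues 0 of 9 (50% of all genes). ND6 differed by 1.40 but overlapped between the groups on this scale, at -3.10 to -1.22 in LBF and -1.27 to -0.61 in HBF. ND5 and ND6 are part of this reference, so a higher level of theirs lowers the relative level of the others by construction, and against the median of the 9 mRNAs ND1 differed by -0.067, COX2 by -0.036 and ND3 by -0.21, with no value for ND4, which is itself the median in every fat library.

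**Figure D3:**
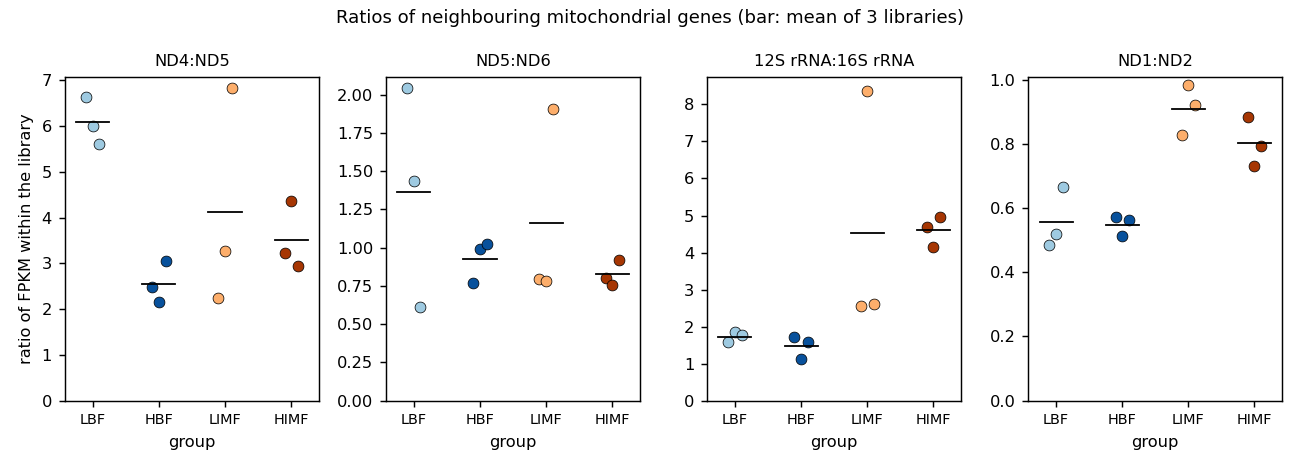
Ratios of FPKM of neighbouring mitochondrial genes within a library, with 1 point per library and a bar at the mean of 3, for ND4:ND5, ND5:ND6, 12S:16S rRNA and ND1:ND2. ND4:ND5 separates LBF (5.61 to 6.64) from HBF (2.15 to 3.05), while 12S:16S and ND1:ND2 separate the tissues, and pairs were picked for the plot with their values known.

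The comparison of HIMF with LIMF asked the same for fat within the muscle. No mitochondrial transcript passed the test, and on the FPKM scale the groups overlapped for each of the 9 mRNAs quantified in all libraries, while the level of COX2 relative to these mRNAs did not overlap. Of 14292 genes tested 0 (0%) were called, 7.05% (1008 genes) had an unadjusted p under 0.05, and of the 14 members tested 0 were called and 0 had an unadjusted p under 0.05. The smallest limma adjusted p of any gene was 0.352. Groups that did not overlap in FPKM were found for 0 of these 9 mRNAs, against 12.7% of all genes. Counting with each scaling the genes that then had an unadjusted p under 0.05, 64.2% were higher as listed and 48.1% after scaling to the sum outside the mitochondrial genome. The limma adjusted p of the members ran from 0.873 to 0.977.

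The LIMF libraries were wide apart. COX2 was at 15707, 37423 and 13084 FPKM in the LIMF libraries against 21595, 19832 and 29406 FPKM in the HIMF libraries, a log2 difference of 0.24 ± 0.62 (SE). ND3 was at 7055, 21757 and 27875 FPKM in the LIMF libraries against 10721, 9602 and 11660 FPKM in the HIMF libraries, a difference of -0.61 ± 0.63 (log2, SE). Of the members 6 lay above 0 and 8 below, and 54% of all genes lay above. All 3 HIMF values of ND3 lay inside the LIMF range.

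For the other complex I genes the log2 differences were -0.39 ± 0.44 for ND1, -0.21 ± 0.43 for ND2, 0.17 ± 0.65 for ND4L, -0.19 ± 0.52 for ND4, -0.10 ± 0.47 for ND5 and 0.26 ± 0.66 for ND6 (SE, n = 3 against 3). CYTB differed by -0.22 ± 0.52 (SE), 12S rRNA by -0.26 ± 0.51 and 16S rRNA by -0.52 ± 0.84. COX1 at 0.27 ± 0.96, ATP6 at 0.71 ± 0.89 and COX3 at 0.66 ± 0.94 (log2, SE) rest on 1 LIMF library. The 95% intervals stay wide, from -1.19 to 0.997 for ND5 and from -1.26 to 1.78 for ND6.

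LIMF library 3 lay outside the other 11 in the ratios of ND4L to its neighbours. The ND4L and ND4 genes overlap by 7 bases, and how reads of an overlap were assigned is not given in the sources used here. In this library ND3 was 3.07 times ND4L, against 0.474 to 0.844 in the other libraries, and ND4L was 0.721 times ND4, against 1.80 to 2.31. It also had 966 FPKM of ND6 beside 3400 and 5815 FPKM in the other LIMF libraries, and a ND4:ND5 ratio of 6.84. The high slow fibre markers and the 3 values not quantified of this library stand beside these figures, and their part was not tested. Without it 0 members were called in HIMF against LIMF, but several directions turned. The log2 difference was then -0.47 for ND6, -0.059 for COX2, -0.25 for ND4L, 0.31 for 12S and 0.32 for 16S rRNA, and ND5 moved to -0.40.

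A contrast fitted over all 12 libraries asked whether the high-low difference itself differed between fat and muscle. ND5 gave -1.15 ± 0.55 (log2, SE, limma adjusted p = 0.510) and ND6 -1.19 ± 0.83 (limma adjusted p = 0.646). At an adjusted p under 0.05 stood 0 of 15965 genes (0%), with 1633 (10.2%) at an unadjusted p under 0.05, and 0 of the 14 members without ATP8 at either limit. Leaving out 1 library moved ND5 over -1.46 to -0.81 and ND6 over -1.92 to -0.63. Without LIMF library 3, 117 genes were called in this contrast, none of them a member, with ND5 at -1.46 (limma adjusted p = 0.205) and ND6 at -1.92 (adjusted p = 0.159). Neither gene passed the test in this contrast, which does not show that the tissues were alike.

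The comparison of LD muscle with back fat placed the same genes against a very large difference in the rest of the transcriptome. Of 15965 genes tested 56.4% were called, 9.29% higher and 47.2% lower in muscle, and the median log2 difference of all genes was -0.97. Of the 15 members tested 0 were called, and none of the 14 without ATP8 had an unadjusted p under 0.05, which 80.6% of all genes had, while 79.5% had an adjusted p under 0.05. The 9 mRNAs quantified in all libraries differed by -0.23 to 0.41 with a median of 0.09, and 0 of 9 had tissues that did not overlap, against 59.6% of all genes. In bulk RNA, fewer cells of a type and less RNA per cell cannot be told apart, and FPKM are shares of a library, so no level per cell or per mitochondrion is given.

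Of complex I, ND1 differed by 0.40 ± 0.28 (log2, SE, 95% interval -0.20 to 1.01), ND2 by -0.23 ± 0.30, ND3 by -0.04 ± 0.38, ND4L by -0.10 ± 0.39, ND4 by 0.09 ± 0.30, ND5 by 0.23 ± 0.28 and ND6 by 0.41 ± 0.41. CYTB differed by 0.06 ± 0.33 (SE, 95% interval -0.66 to 0.79) and COX2 by 0.12 ± 0.36 (95% interval -0.66 to 0.90). These intervals hold for FPKM as listed, and after median-of-ratios scaling COX2 differed by 1.05 (limma adjusted p = 0.0198) and CYTB by 0.99 (adjusted p = 0.0164). COX1 differed by 0.56 ± 0.44 over 3 muscle libraries and 6 fat libraries, and ATP6 and COX3 by -0.48 ± 0.54 and -0.56 ± 0.59 over 4 and 4.

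The rRNAs went apart. 12S rRNA differed by 0.20 ± 0.41 (log2, SE) and 16S rRNA by -1.20 ± 0.58 (SE, limma adjusted p = 0.0772, the smallest among the 14 members), with 0.0887 from an exact two-sided permutation test. Without LIMF library 3, 16S differed by -1.62 (limma adjusted p = 0.0133) and ND6 by 0.77 (adjusted p = 0.0336), and without LBF library 3 16S differed by -1.19 (adjusted p = 0.114). Without LIMF library 2, which had the lowest 16S, it differed by -0.65 (adjusted p = 0.163), and after median-of-ratios scaling 16S differed by -0.27. No member was called without LIMF library 3 or LBF library 3, with 9009 and 8898 genes called in all. The 12S:16S ratio was 1.14 to 1.84 in the 6 fat libraries, with a mean of 1.61 ± 0.25, and 2.55 to 8.37 in the 6 muscle libraries, with a mean of 4.56 ± 2.13 (SD, n = 6 each). Every muscle library was above every fat library, and the highest, 8.37, was LIMF library 2.

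ND1:ND2 was the other of the 8 pairs with all 12 libraries that did not overlap between the tissues. FPKM, a different measure, did not overlap for 59.6% of all genes, and the 2 of 8 pairs are given as a description. ND1:ND2 was 0.484 to 0.664 in fat (0.552 ± 0.064) and 0.732 to 0.983 in muscle (0.857 ± 0.091, SD, n = 6 each). Among the 5 pairs with values missing, ND2:COX1, COX1:COX2 and COX2:ATP6 did not overlap either, over 3 or 4 muscle libraries. COX1 was 0.379 to 0.902 times COX2 in fat and 0.993 to 1.11 times COX2 in the 3 muscle libraries that had COX1. ND5:ND6 and ND6:CYTB, the pairs that join genes on opposite strands, overlapped in all comparisons.

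**Figure D4:**
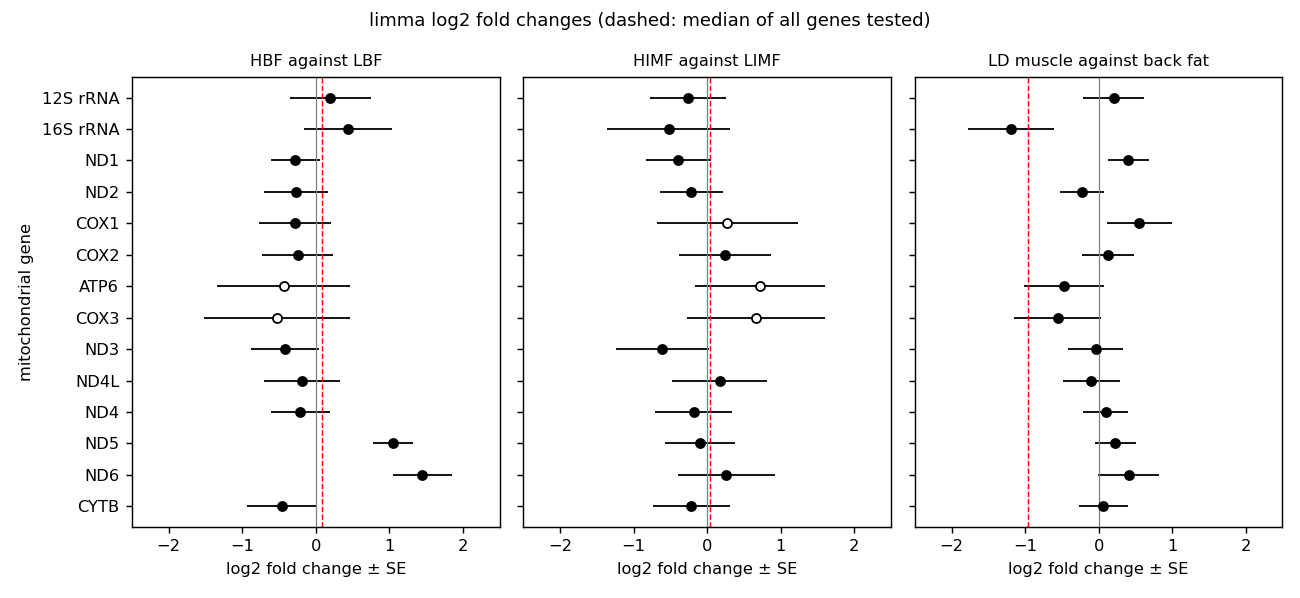
Log2 fold changes with SE from limma for the 14 members without ATP8 in 3 comparisons, with open circles where 1 side rests on 1 library and a dashed line at the median of all genes tested. ND5 and ND6 stand apart in fat, none does in LIMF against HIMF, and 13 of 14 members lie to the right of the all-gene median of -0.97 between the tissues.

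This comparison depends on the scaling. The share of higher genes among all those with an unadjusted p under 0.05 was 19.7% as listed, 43.5% after median-of-ratios scaling and 48.5% after quantile normalization. As listed, 8 of the 14 members lay above 0 with a median of 0.08, where 23.6% of all genes did. After median-of-ratios scaling the median of all genes moved to -0.22 and that of the members to 1.01, with 13 of 14 above 0, and ND1 (1.33), ND4 (1.02) and ND5 (1.16) were called. After quantile normalization the members' median was -0.20 with 3 above 0 and 0 called, so the direction of the group between the tissues turns with the scaling. Relative to the median of all genes COX2 stood at 1.09 as listed, at 1.28 after median-of-ratios scaling and at -0.07 after quantile normalization. Ratios within a library, such as those above, are the values that scaling by a factor does not change.

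The nuclear partners were read from lists of which at least 80% could be matched by symbol. Their counts stand against 9.29% of all genes called higher and 47.2% called lower in muscle. Complex II, which has no mitochondrial gene, was higher in muscle. SDHB, its iron-sulphur subunit, differed by 1.69 ± 0.17, and its membrane anchors SDHD and SDHC by 1.35 ± 0.18 and 1.05 ± 0.25 (log2, SE, limma adjusted p = 2.4e-06, 2.5e-05 and 0.0018). SDHA, the flavoprotein, differed by 0.80 ± 0.19 with an adjusted p of 0.0025 from limma and missed the fold limit. That is 3 of 4 called higher and 0 lower, and all 4 lay above 0 with every scaling tried.

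Of 12 nuclear complex IV subunits matched out of 14, 7 were called higher and 3 lower in muscle. COX5A differed by 2.4 ± 0.19 and NDUFA4 by 1.94 ± 0.26 (log2, SE), COX8A by -1.84 ± 0.19, and COX4I1 by 0.31 ± 0.22 with a limma adjusted p of 0.209. COX5A was at 84.6 to 119 FPKM in fat and 377 to 854 FPKM in muscle, and COX8A at 173 to 299 FPKM in fat and 47.1 to 96.6 FPKM in muscle. The other subunits lower in muscle were COX6A1 (-1.69), whose heart and muscle counterpart COX6A2 was higher by 5.09, and COX4I2 (-2.47), an alternative form of COX4I1. COX6A1, COX6A2 and COX4I2 were named after their values were seen. The 3 mitochondrial subunits of the same complex lay at 0.56 (COX1), 0.12 (COX2) and -0.56 (COX3). The nuclear count was 8 higher and 1 lower after median-of-ratios scaling and 7 and 3 after quantile normalization.

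Of 23 matched genes for mitochondrial transcription and RNA processing, out of 25, 5 were called higher and 1 lower in muscle. MTERF3, a regulator of mitochondrial transcription, differed by 2.05 ± 0.19 and SLIRP, which keeps mitochondrial mRNAs stable together with LRPPRC, by 1.07 ± 0.19 (log2, SE). REXO2, an exonuclease for short RNAs, was lower by 1.35 on the log2 scale, a difference of -1.35 ± 0.17 (SE). HSD17B10, a subunit of the RNase that cuts the 5′ ends of tRNAs, differed by -0.30 ± 0.21 and was not called. LRPPRC (1.40), FASTKD5 (1.31) and TFB2M (1.13), named after their values were seen, were the other genes called. With median-of-ratios scaling 14 were called higher and 0 lower, so the count turns on the scaling.

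Of the 7 genes for replication of mitochondrial DNA, 0 were called higher and 2 lower, where 47.2% of all genes were lower. TK2 and DGUOK, the kinases that supply mitochondrial nucleotides, differed by -2.27 ± 0.15 and -1.71 ± 0.15 (log2, SE), with TK2 at 9.53 to 14.3 FPKM in fat and 1.84 to 2.83 FPKM in muscle. POLG, the DNA polymerase, differed by 0.62 ± 0.11 and was under the fold limit, and SSBP1, which coats single strands, by -0.23 ± 0.13. With median-of-ratios scaling 2 of the 7 were called higher and 1 lower, so the direction of this list is not settled.

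Of 7 regulators of mitochondrial biogenesis 3 were called higher and 1 lower. PPARGC1A, the coactivator PGC-1alpha, was at 0 to 0.304 FPKM in fat and 2.98 to 32.0 FPKM in muscle, the highest in LIMF library 1, and ESRRA, a nuclear receptor it works with, was at 6.01 to 9.42 and 35.2 to 94.1 FPKM. Their log2 differences were 5.33 ± 0.48 and 2.93 ± 0.18 (SE), on a scale with 0.1 added, which understates that of PPARGC1A. GABPA (0.19 ± 0.15) and PPRC1 (-0.22 ± 0.20) were not called. ESRRG (2.61) and NRF1 (-1.45) were the remaining genes called and were named after their values were seen. After median-of-ratios scaling 4 were called higher and 0 lower, and after quantile normalization 3 and 0.

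**Figure D5:**
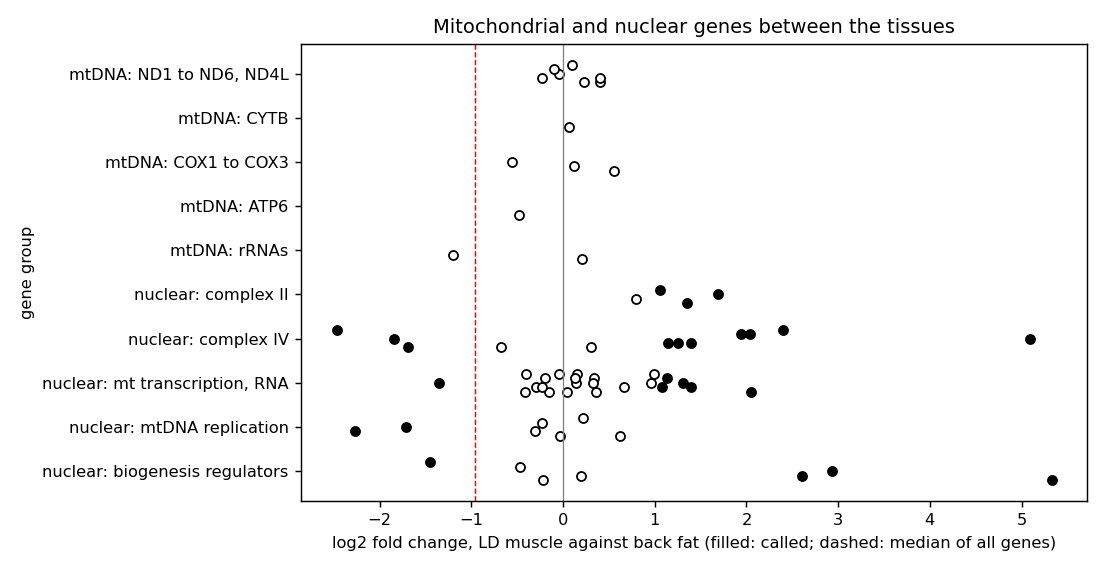
Log2 fold change of LD muscle against back fat from limma, 1 point per gene, for mitochondrial genes by complex and for 5 nuclear lists, filled where called, with a dashed line at the median of all genes. All mitochondrial points are open and lie between -1.20 and 0.56, while complex II has 3 of 4 and complex IV 10 of 12 points filled.

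Within the tissues the nuclear lists had 0 calls. In HBF against LBF 11 of 12 complex IV subunits lay below 0 with a median of -0.36, and 6 of 12 had an unadjusted p under 0.05, all lower, where 4.23% of all genes did. NDUFA4 differed by -0.51 ± 0.15, COX8A by -0.40 ± 0.17, COX5A by -0.32 ± 0.12 and COX4I1 by -0.46 ± 0.20 (log2, SE, limma adjusted p = 0.269, 0.358, 0.330 and 0.368). All 4 complex II genes lay below 0, with SDHC at -0.80 ± 0.22 (limma adjusted p = 0.266) and at 46.5, 26.2 and 28.8 FPKM in LBF against 17.4, 18.7 and 20.3 FPKM in HBF. The exception in complex IV was COX4I2 at 0.48 ± 0.40 (log2, SE), named after its values were seen, and of its mitochondrial subunits COX1 and COX2 also lay below 0, none of them past the test, while COX3 rests on 1 LBF library. In the same comparison the sums of red blood cell markers did not overlap, while those of fibroblast and macrophage markers did, as given beside ND5 and ND6. The part of these cell types in the values of complexes II and IV was not tested.

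Of the genes for mitochondrial RNA, 10 lay above and 13 below 0 in HBF against LBF, and 3 of the 23 had an unadjusted p under 0.05, close to the 13.6% of all genes. HSD17B10 was at 131, 138 and 141 FPKM in the LBF libraries against 67.3, 65.7 and 94.0 FPKM in the HBF libraries, a log2 difference of -0.87 ± 0.17 (SE, limma adjusted p = 0.218). TFB2M, a mitochondrial transcription factor named after its values were seen, was at 1.95, 2.01 and 1.77 FPKM in the LBF libraries against 4.14, 3.57 and 3.50 FPKM in the HBF libraries, a log2 difference of 0.93 ± 0.17 (SE, limma adjusted p = 0.212). The groups did not overlap for either gene, as for 20.4% of all genes. REXO2 differed by 0.48 ± 0.16 (SE, limma adjusted p = 0.307). In HIMF against LIMF the same list had 1 gene at an unadjusted p under 0.05, ELAC2, which cuts the 3′ ends of tRNAs, at 0.54 ± 0.22 (log2, SE, limma adjusted p = 0.683), and no gene of complexes II or IV reached it. Of the 7 biogenesis regulators, 6 lay above 0 in HBF against LBF, 2 at that limit and 3 not overlapping (20.4% of all genes). In HIMF against LIMF 6 lay below 0, 1 at that limit and 3 not overlapping (12.7% of all genes). No gene for replication of mitochondrial DNA reached the limit within a tissue.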

How the data were processed

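The deposited values are FPKM per Ensembl gene and library. The authors made them from fastp-filtered reads with HISAT2 (genome Sscrofa11.1) and Cufflinks 2.2.1. Handling of multi-mapped or stranded reads is not given in the sources used here, and without counts the depth of a value is unknown. The 7 identifiers on 2 rows each were summed. Symbols came from an Ensembl table. All 13 protein genes fell in the order of the RefSeq annotation, and the rRNAs were named by their place in that order. Sequences were not used here.

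Tests used limma 3.58.1 under R 4.3.3 with an intensity trend in eBayes. The scale was log2(FPKM + 0.1), genes needed a mean FPKM over 0.05, and p-values were adjusted by Benjamini-Hochberg over all genes. The authors' limits for a call were kept (adjusted p under 0.01, log2 difference of 1 or more either way). They tested counts, and limma was used here because the values are FPKM. An exact 0 in a mitochondrial protein gene over 1000 FPKM in another library of the tissue was a missing value. The study's methods describe 12 selected pigs, and whether 1 pig gave both a fat and a muscle library is not given in the sources used here. The method was tested on simulated data. All 13 protein and both rRNA genes are named, with up to 4 genes of highest mean FPKM from each nuclear list. Nuclear partner lists matched below 80% (complexes I and III and the ATP synthase) were not used, while the skeletal muscle markers, matched for 7 of 11, were kept for the tissue check. The members and lists were chosen with earlier results of these data known.

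Alternatives were other pseudocounts and filters, median-of-ratios, nuclear-sum and quantile scaling, zeros kept as values, each library left out, a replicate block within a tissue and, added later, over both tissues, 1 fit over all libraries, no trend and another call limit.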

Additional observations from a re-analysis of the deposited data

How the results depend on the processing

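No mitochondrial gene other than ATP8 was called in any comparison under the alternatives tried, except ND1, ND4 and ND5 between the tissues after median-of-ratios scaling (3 members called). ATP8, at 0 in most libraries, was the 1 member called between the tissues at an adjusted p under 0.05 with no fold limit, and in the 3 comparisons that use the fat groups when HBF replicate 2 was left out. ND5 and ND6 stayed higher in HBF under every alternative, at 0.77 to 1.21 and 1.06 to 1.83 (log2). Their groups did not overlap as listed, so only another scaling could have turned the sign. The cause of the changes was not tested, apart from what an alternative does by construction.

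Quantile normalization turned COX1 (-0.074), COX2 (-0.079) and ND6 (-0.044) in HIMF against LIMF and ND1 (-0.13), COX2 (-0.14), ND4 (-0.28), ND5 (-0.29) and CYTB (-0.14) between the tissues, and took ATP6 or COX3 to 0 in all 3. Median-of-ratios scaling turned ND2 (0.70), ATP6 (0.48), COX3 (0.40), ND3 (0.89) and ND4L (0.83) between the tissues. With zeros kept as values, ATP6 (11.8) and COX3 (12) turned in HBF against LBF and COX1 (-8.20) between the tissues, which the zeros set by construction. Genes called between the tissues fell from 9012 to 5864 with a pseudocount of 1. Over all genes, 1 was called in HIMF against LIMF with all 12 libraries in 1 fit, and in the contrast between the tissues 1 was called with a pseudocount of 1 or 0.01 or with no filter, and 2 without the trend. Over the 11 members above 0 everywhere the share was 20.3, 16.6 and 16.9% in LBF, HBF and HIMF, and 19.6 and 19.8% in HBF and HIMF of a total without the other members, chosen after seeing the data.

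Without 1 library at a time, all genes called ranged over 0 to 1 (HBF against LBF), 0 to 3 (HIMF against LIMF) and 0 to 117 (contrast between the tissues, the 117 without LIMF replicate 3, none a member), and members called over 0 to 1 (ATP8) in HBF against LBF, between the tissues and in that contrast. The signs of small differences moved too. In HBF against LBF, ND4L ranged from -0.43 to 0.047, 12S from -0.39 to 0.80 and 16S from -0.085 to 1.17. In HIMF against LIMF, COX2 ranged from -0.059 to 0.70, ND4 from -0.58 to 0.068, ND4L from -0.25 to 0.68, ND5 from -0.40 to 0.25, ND6 from -0.47 to 0.82, 12S from -0.78 to 0.31 and 16S from -1.61 to 0.32. Between the tissues, COX2 ranged from -0.11 to 0.27, ND3 from -0.23 to 0.26, ND4L from -0.36 to 0.11, ND4 from -0.032 to 0.29, CYTB from -0.076 to 0.25 and 12S from -0.10 to 0.49, and 16S kept its direction at -1.62 to -0.65. Where a library left COX1, ATP6 or COX3 with no value in a group, no fit was made.

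Same-numbered libraries correlated in their deviations from the group means at 0.04 to 0.14 in fat, -0.10 to 0.03 in muscle, 0.0096 to 0.14 between LBF and LIMF and -0.075 to -0.055 between HBF and HIMF, and the labels do not say what a number marks. With the replicate block 0 members were called in every comparison, and 0, 0 and 9001 genes in HBF against LBF, HIMF against LIMF and between the tissues. A block of number and low or high label over fat and muscle, chosen after seeing the data, gave 0 members and 8991 genes between the tissues and 0 genes in the contrast. Without counts, depth sets no limit that can be stated, and 3 libraries a group limit the precision.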
